A study of Mus musculus with 2 samples.

Results

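In mouse limb tissue at embryonic day 10.5, 159 protein-coding genes had at least 2-fold more counts in replicate 2 than in replicate 1. They were chosen by that difference: a log2 difference of 1 or more in CPM (counts scaled to a common library total), with 2 counts added to each value, among genes whose expected counts averaged 100 or more over the libraries. An expected count is the estimated number of reads of a gene and need not be whole. Genes whose symbols start with Hox, Col, Krt, Hb, Myo, Tnn, Pax, Sox, Hist, Fox, Sema or Rp were left out. Of 21474 protein-coding genes in the tables, 11521 passed the count minimum, and 11212 of these remained after the symbols were left out. The 159 genes are 1.42% of those 11212, and 25 genes (0.223%) were at least 2-fold lower. With no symbol left out, 181 of 11521 genes (1.57%) reached the same threshold upwards and 26 (0.226%) downwards. The difference between the libraries selected the genes, so it is given here as a description and supports nothing by itself.

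Both libraries were total RNA-seq of limbs of strain B6NCrl embryos of both sexes, with no treatment, allele or agent named. Replicate 1 was 1 pool of limbs from 69 embryos and replicate 2 was 1 pool from 51 embryos. Each library was made from 10 ng of RNA extracted by the mirVana method, with spike-in RNAs added, and the labels link the manual of a SMARTer low-input kit. The labels do not say whether forelimbs, hindlimbs or both were taken, or in what proportion. Pool, library and any batch cannot be told apart, because each side of the comparison is 1 library. No p-value is therefore given, and the intervals printed with log2 differences are 95% exact intervals for counting error only.

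Expected counts on Ensembl gene rows totalled 38932257 in replicate 1 and 42465764 in replicate 2, and spike-ins took 3.89% and 3.45% of all counts. Limb mesenchyme factors were present in both libraries: Msx1 stood at 311 and 302 TPM and Prrx1 at 141 and 184 TPM in replicates 1 and 2. TPM is abundance corrected for transcript length and scaled to a fixed total. The median log2 difference over the 11521 genes was 0.07, and 61.6% of them were higher in replicate 2 by any amount.

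The limb bud at this stage is a core of mesenchyme under an ectodermal cover. Its mesenchyme is starting to form cartilage condensations, tendon progenitors and joint-forming regions, while muscle precursors from the somites, nerves, vessels and blood cells enter from the trunk. Cells that differentiate switch on matrix, adhesion and contractile genes in place of progenitor genes. In bulk tissue, fewer cells of a type and less RNA per cell cannot be told apart.

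As a set the genes stood at low levels. Their median was 1.66 TPM in replicate 1 and 4.52 TPM in replicate 2. The median of their mean TPM was 3.20, beside 22.4 over the 11521 genes and 2.74 over the 25 genes at least 2-fold lower. Together the 159 took 0.130% of gene counts in replicate 1 and 0.317% in replicate 2. Their log2 differences ran from 1.00 to 2.65 with a median of 1.26. The counting interval lay above 0 for each of the 159 and wholly above 1 for 81. Over the 11521 genes it lay above 0 for 4908 and above 1 for 99. The rule chose the members by this same difference, so their intervals are no support for it. The intervals of TPM in the deposited tables lay apart, with replicate 2 higher, for 144 of the 159 genes and for 36.7% of all 11521; a further 9.45% of the 11521 lay apart with replicate 2 lower. The gene counts sum over all transcripts, and the transcript with the most counts was not typed as protein-coding in 10 of the 159 genes (6.29%) and in 4.17% of the 11521. From protein-coding transcripts alone, 152 of the 159 had a log2 difference of 1 or more. The 7 under 1 were Pla2g4b (which has no such counts), E130114P18Rik, Mab21l2, Thsd7a, Fam184a, Thbs3 and Nfic. For Thsd7a this leaves out 5.70 and 87.4 counts on a transcript that the annotation does not name or type. That transcript is as long as the coding Thsd7a-206, so the coding value of Thsd7a is uncertain. In 64 of the 159, replicate 1 had under 100 counts, so the ratio rests on few reads. Members just inside the threshold were Dcn (1.00), Gas2 (1.00), Scx (1.01), Zfp781 (1.01) and Lzts1 (1.01). Just outside it stood Synrg (1.00, before rounding under 1), Zcchc18 (1.00), Syt13 (0.99), Gxylt2 (0.99) and BC067074 (0.98).

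**Figure D1:**
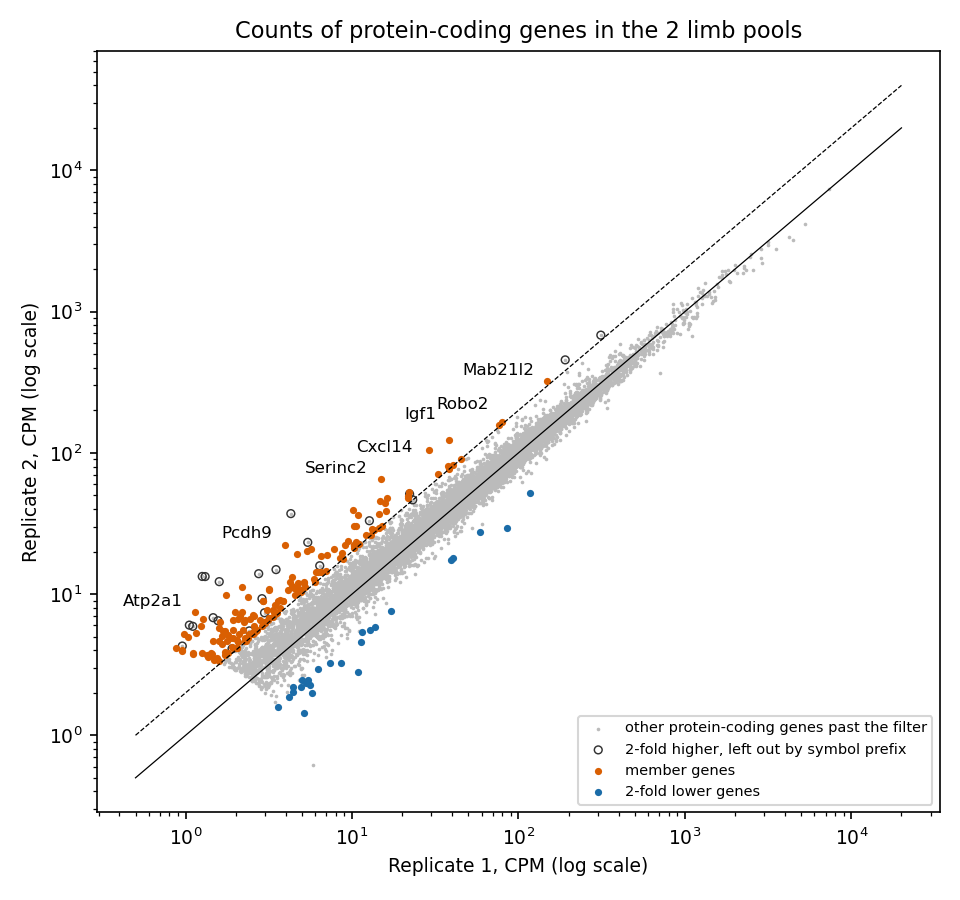
Scaled counts (CPM) of each of the 11521 protein-coding genes past the count minimum, replicate 1 against replicate 2, both axes on a log scale; the solid line marks equal values and the dashed line a 2-fold higher value in replicate 2. The 159 member genes (orange) lie on or above the dashed line and mostly at the low end of the range, with Mab21l2 as the highest, and open circles mark the 22 genes left out by symbol.

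The share of genes past the threshold differed with the count and with the length. Among genes with a mean count of 100 to 200, 7.70% were members, against 2.81% at 200 to 500, 1.54% at 500 to 1000 and 0.283% at 1000 or more. Over 5 classes of effective length with like numbers of genes, the share was 0.669% in the shortest, then 0.981%, 1.25%, 2.23% and 1.96% in the longest. Over the 11212 genes the median log2 difference went the same way with length, from -0.04 in the shortest class to 0.15 in the longest. Members had a median effective length of 3225 nt, against 2496 nt over the 11521 genes and 3178 nt over the 25 genes at least 2-fold lower. The part that length plays in the members' differences was not tested.

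**Figure D2:**
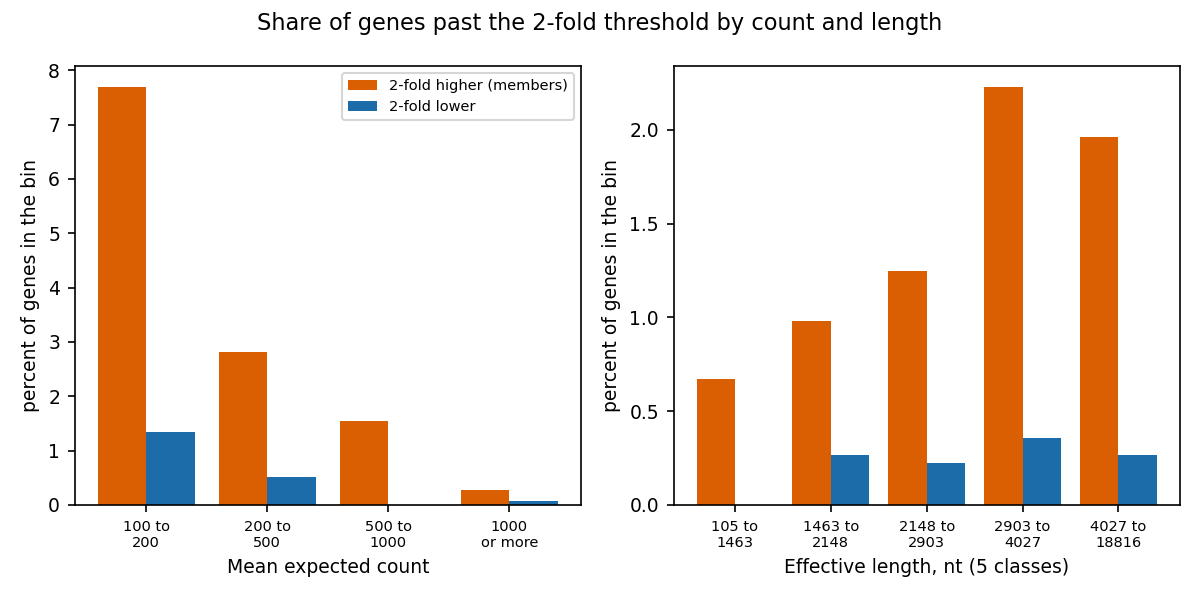
Percent of genes that were at least 2-fold higher (orange) or at least 2-fold lower (blue) in replicate 2, by mean expected count (left) and by 5 classes of effective length in nt (right). The orange bars are tallest at low counts, 7.70% at 100 to 200, and in the longer genes.

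The members were sorted by known role into 10 groups: 23 transcription factors and cofactors, 11 secreted signals and their regulators, 17 receptors and signalling proteins, 25 matrix and matrix-associated proteins, 22 adhesion and junction proteins, 6 contractile or cytoskeletal proteins, 12 channels, pumps and transporters, 11 vesicle and neural proteins, 7 metabolic enzymes and 25 others. Median log2 differences of the groups lay between 1.12 for the transcription factors and 1.49 for adhesion and for contractile proteins. The groups therefore overlapped widely in the size of the difference. They differed more in level: the median of the mean TPM was 8.53 for contractile proteins, 5.71 for transcription factors and 1.62 for vesicle and neural proteins.

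**Figure D3:**
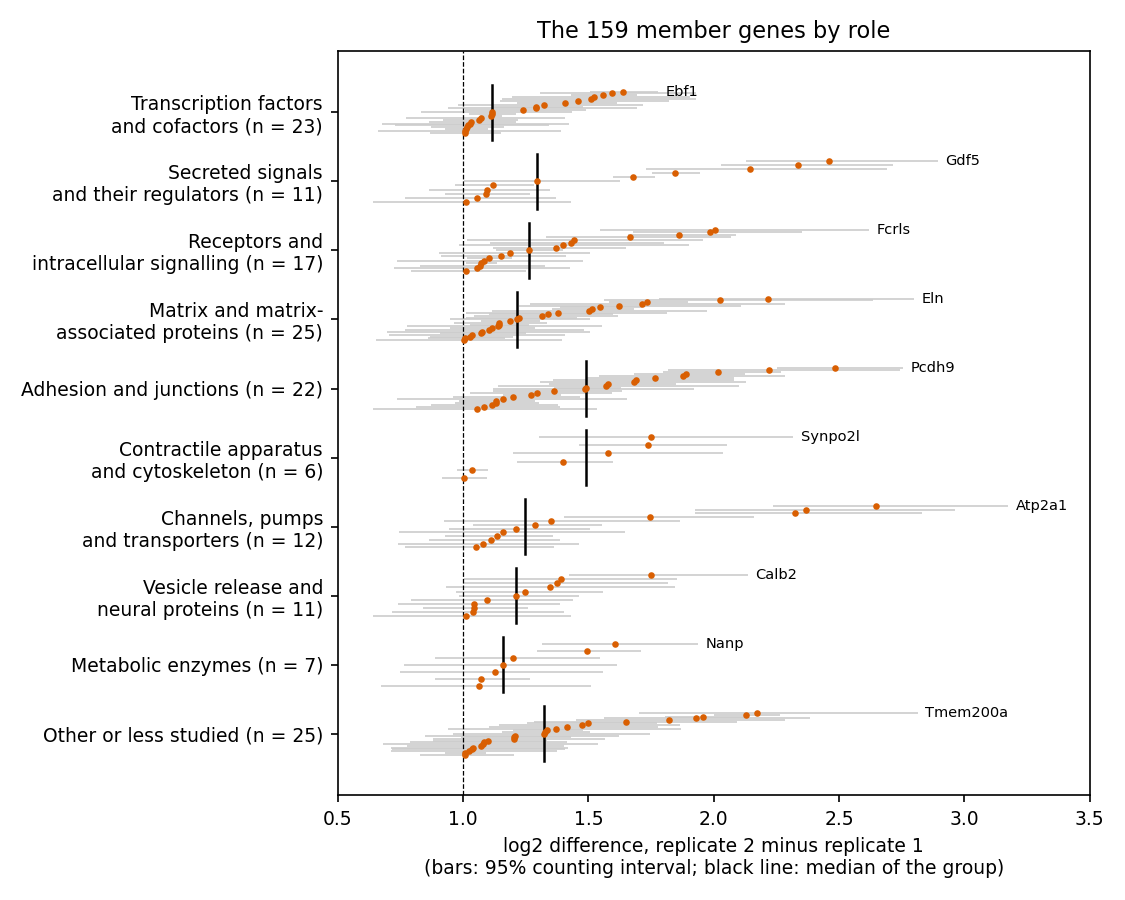
The log2 difference (replicate 2 minus replicate 1) of each of the 159 genes in its role group, with the 95% counting interval in grey, the group's median as a black line and the gene with the largest difference in each group named. The widest spreads are those of the secreted signals, led by Gdf5, and of the channels and pumps, led by Atp2a1.

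The gene row with the most counts in this group was Mab21l2, which codes for a nuclear protein needed for eye and body wall development, at 87.0 TPM in replicate 1 and 197 TPM in replicate 2. Its mean was 142 ± 77.9 TPM (SD, n = 2), and the log2 difference was 1.11 (1.07 to 1.16). Its 5793 and 13656 counts were mostly assigned to Mab21l2-202, which the annotation types as a processed pseudogene, with 4955 and 12242 counts. The protein-coding Mab21l2-201 had 838 and 1414 counts, a log2 difference of 0.63. Both are single-exon transcripts of the same strand and overlap for most of their length, so reads of the shared stretch cannot be assigned to one of them, and the level of the coding transcript is uncertain. Tbx4, the T-box factor of the hindlimb, stood at 19.7 and 41.1 TPM, a log2 difference of 1.01. Pitx1, which acts upstream of Tbx4 in the hindlimb and is not a member, stood at 65.0 and 127 TPM (0.86), while Tbx5, the forelimb counterpart, stood at 28.8 and 26.4 TPM (-0.19). With this scaling, replicate 2 was the higher library for both hindlimb factors and slightly the lower one for Tbx5. Spike-in scaling raised the median of all genes by 0.18, so the small Tbx5 difference has no fixed sign. Pitx1 and Tbx5 were chosen after their values were seen. Of 6 genes past the count minimum on a list of hindlimb and posterior trunk genes, 4 were higher by any amount. Over all genes that share was 61.6%. Tbx4 was the only member, and Hand1, a lateral mesoderm factor, was lower by 1.39 on the log2 scale. The part that the proportion of hindlimb tissue plays was not tested.

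Factors of the skeletal and connective tissue lineages were in the group. Scx, the marker of tendon progenitors, stood at 21.2 and 44.8 TPM (log2 difference 1.01, 0.87 to 1.15). Runx2, the master factor of bone-forming cells, had 113 and 377 counts and stood at 1.12 and 3.82 TPM (1.60, 1.31 to 1.93). Hic1, a repressor found in mesenchymal progenitors, stood at 0.83 and 2.95 TPM. Ebf1 and Ebf2, early B-cell factors that also act in mesenchyme and fat precursors, stood at 6.17 and 19.9 TPM and at 4.73 and 10.5 TPM. The nuclear factors Nfia and Nfic, which act in glial, tooth and other differentiating tissue, stood at 5.49 and 17.7 TPM and at 7.67 and 16.5 TPM. All of these were higher in replicate 2 by the rule, and Ebf1 had the largest difference of the transcription group, 1.64 on the log2 scale.

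Other members of this group belong to somite and muscle lineages. Tbx18, which keeps anterior somite identity and marks limb and organ mesenchyme, stood at 10.5 and 23.8 TPM (1.12). Dmrt2, a factor of the somite's dermomyotome, stood at 2.17 and 4.64 TPM (1.02). Msc, also called musculin, is a helix-loop-helix repressor of muscle precursors and stood at 2.43 and 7.46 TPM (1.46). Tfap2b, an AP-2 factor of neural crest and distal limb mesenchyme, stood at 5.60 and 16.4 TPM (1.29), and Id4, which blocks helix-loop-helix factors, at 2.11 and 4.57 TPM (1.03). The remaining members here are the calcium-regulated factor Nfatc2, the HMG-box protein Tox, the homeobox genes Evx1 and Pknox2, the CREB relatives Creb5 and Creb3l4, the coactivators Ppargc1a and Ncoa1, and the zinc finger gene Zfp781. Their log2 differences ran from 1.01 to 1.52. Evx1 lies 52.6 kb from Hoxa13 on chromosome 6, and Hoxa13, left out by its symbol, was at 2.25 and 9.28 TPM (2.32).

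Among secreted signals, Gdf5, a BMP-family ligand that marks future joints, had 68.3 counts in replicate 1 and 420 in replicate 2. Its level was 1.15 and 6.81 TPM, and its log2 difference of 2.46 (2.13 to 2.89) was the third largest of the set. Wfikkn2, which binds and holds back the ligands Gdf8 and Gdf11, stood at 1.32 and 6.63 TPM (2.34, 2.03 to 2.71). Its relative Wfikkn1 went the other way, from 4.84 to 2.41 TPM (-1.06). Bmper, an extracellular BMP-binding protein, stood at 0.46 and 2.19 TPM with only 45 counts in replicate 1 (2.15, 1.73 to 2.69). Gdf5 is a ligand of the TGF-beta superfamily, and Wfikkn2 and Bmper act on such ligands. Gdf10, another such ligand, stood at 1.87 and 4.86 TPM (1.30), and Nbl1, a BMP antagonist of the DAN family, at 10.4 and 24.1 TPM (1.12).

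The most abundant secreted members were the chemokine Cxcl14 and the growth factor Igf1. Cxcl14 stood at 24.7 and 93.2 TPM, on 1136 and 4463 counts (1.85, 1.75 to 1.94). Igf1 stood at 14.6 and 49.1 TPM, on 1491 and 5214 counts (1.68, 1.60 to 1.76). Counts were high for both, and their counting intervals lie above 1. These intervals cover counting error only, and the rule chose both genes by this difference. Most Igf1 counts were assigned to the transcript Igf1-202, with 1184 and 4475 counts. Fgf9, a fibroblast growth factor of the apical ridge and mesothelia, stood at 2.49 and 5.48 TPM (1.05). It was the only member on a list of apical ridge genes. There 5 of 15 genes past the count minimum were higher by any amount, beside 61.6% of all genes. Fgf4, another ridge ligand, was lower by 1.12 on the log2 scale. Bdnf, a neurotrophin, stood at 1.97 and 4.42 TPM. Enpp2, the enzyme autotaxin that makes lysophosphatidic acid, and Pappa, a protease that frees IGFs from their binding proteins, complete the group at log2 differences of 1.09 and 1.01.

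Receptors and signalling proteins spanned several pathways. Robo2, a receptor for Slit guidance cues, was the most deeply counted with 3084 and 7078 counts, and stood at 28.8 and 64.1 TPM (1.07, 1.01 to 1.13). Its transcript with the most counts, Robo2-209, is typed as a retained intron and took 1527 and 3060 of them, and the protein-coding transcripts gave a log2 difference of 1.28. Rasl11b, a small GTPase of the Ras family, stood at 33.9 and 75.5 TPM (1.10). Agtr2, the type 2 angiotensin receptor, which is abundant in fetal mesenchyme, stood at 2.62 and 10.0 TPM (1.86, 1.66 to 2.09). Apc2, a relative of the Wnt pathway scaffold Apc, stood at 0.74 and 2.45 TPM (1.99). The neurotrophin receptor Ntrk2, which binds Bdnf, stood at 0.87 and 2.34 TPM (1.37). Nearly all of its TPM came from the transcript Ntrk2-202, at 98.9% and 94.2%, which codes for 476 amino acids, whereas Ntrk2-201 codes for 821. Fgfr4, an FGF receptor of differentiating muscle, stood at 0.60 and 1.76 TPM (1.44), and the leptin receptor Lepr at 1.13 and 2.68 TPM (1.67). The others were the membrane peptidase Mme, the Nogo receptor Rtn4r, the GTPase Rhov, the lipid-binding domain protein Stard13, the exchange factor Rasgef1b, the kinase Aatk, the orphan receptor Gpr153 and the ubiquitin ligases Cul9 and Nedd4l, with log2 differences of 1.01 to 1.43.

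Fcrls, an Fc receptor-like gene of microglia and related macrophages, had 37 and 169 counts and stood at 0.64 and 2.80 TPM (2.01, 1.55 to 2.62). On a list of 19 macrophage and immune genes, 10 passed the count minimum. Of these, 9 were higher in replicate 2 by any amount and none was a member, beside 61.6% and 1.42% of all genes. The list's summed level was 75.3 TPM in replicate 1 and 101 TPM in replicate 2, its median log2 difference was 0.35, and Csf1r, the receptor that macrophages depend on, stood at 3.17 and 4.76 TPM. The part of macrophage number in the value of Fcrls was not tested.

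The matrix group, of 25 genes, held structural proteins, their crosslinking enzymes and proteins that store growth factors. Eln, elastin, had 40 and 211 counts and stood at 0.60 and 3.06 TPM (2.22, 1.78 to 2.80). Lox and Loxl1, enzymes that crosslink elastin and collagen, stood at 1.35 and 3.29 TPM and at 4.98 and 10.7 TPM, with log2 differences of 1.21 and 1.03. Ltbp1 and Ltbp3, which bind latent TGF-beta in the matrix, stood at 5.79 and 13.8 TPM and at 0.69 and 1.58 TPM. Adamtsl2, a microfibril-associated protein, stood at 2.90 and 7.72 TPM. Each of these genes was at least 2-fold higher in replicate 2 by the rule. Other crosslinking and microfibril genes of a matrix list are not members, so nothing is read about such genes as a group.

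Other matrix members are proteoglycans and glycoproteins. Lum and Dcn, the proteoglycans lumican and decorin, which regulate collagen fibrils, stood at 7.82 and 23.4 TPM and at 1.89 and 4.01 TPM. They are neighbours on chromosome 10, with 47.0 kb between them. Islr, an immunoglobulin and leucine-rich repeat protein of mesenchyme, stood at 7.88 and 27.7 TPM (1.73, 1.58 to 1.90), though it shares exon sequence with Islr2 on the same strand. Smoc2, a calcium-binding matrix protein, stood at 5.52 and 16.9 TPM (1.55), and Sned1 at 10.0 and 23.2 TPM (1.19). Cspg4, the proteoglycan NG2 of pericytes, stood at 1.12 and 2.75 TPM (1.22). It was the only member among 11 smooth muscle and mural genes past the count minimum. Of the 11, 9 were higher by any amount, beside 61.6% of all genes.

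Papss2 and Spp1 are markers of skeletal tissue. Papss2, which makes the sulfate donor that cartilage proteoglycans need, had 37 and 171 counts and stood at 0.39 and 1.74 TPM (2.02, 1.56 to 2.64). Spp1, osteopontin, had 57 and 196 counts and stood at 1.63 and 5.38 TPM (1.62). On the cartilage list, 9 genes passed the count minimum, 7 were higher by any amount, Gdf5 and Papss2 were members, and the list median was 0.39. Of the cartilage collagens, left out by symbol, Col9a2 stood at 0.92 and 7.72 TPM (3.29) and Col9a3 at 3.32 and 25.5 TPM (3.10). Col2a1 stood at 60.5 and 157 TPM (1.25). These genes all reached the threshold, as did only 7 of 35 genes past the count minimum whose symbols start with Col. Nothing is read from them about collagens as a group. On the bone list, 6 genes passed, Runx2 and Spp1 were the members and the other 4 were lower, so the list median was -0.13. The remaining matrix members were Hpse, Thsd7a, Adamtsl1, Spock3, Olfml1, Ssc5d, Thbs3, Srpx, Lrrc17, Adamts6 and Adamts15. They are a mixture of enzymes, thrombospondin-repeat proteins and glycoproteins, with log2 differences of 1.01 to 1.71. Over 37 matrix genes of a list past the count minimum, 29 were higher by any amount and 8 were members. The median was 0.47, beside 0.07 over all genes. The counts of the cartilage, bone and matrix lists stand beside 61.6% of all genes higher and 1.42% members. Tnc, tenascin C, went the other way, from 8.50 to 4.15 TPM (-1.15).

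Adhesion and junction genes held the second largest difference of the set. Pcdh9, a protocadherin, had 154 and 951 counts and stood at 2.11 and 11.2 TPM (2.49, 2.25 to 2.76). Pcdh8 (0.78 and 2.86 TPM) and Pcdh10 (1.43 and 4.97 TPM) are protocadherins of the same broad family. Pcdhga6 also belongs to it, but its 3' exons are shared with the other genes of the gamma cluster, so its counts are uncertain. Fat4, a giant cadherin of planar polarity, stood at 2.23 and 5.58 TPM (1.27, 1.16 to 1.39). Itga11, an integrin subunit that binds collagen, stood at 0.38 and 1.86 TPM (2.22), and Itgb8, part of an integrin that activates TGF-beta, at 1.23 and 3.48 TPM (1.36). Tspan11, a tetraspanin, stood at 1.66 and 7.15 TPM (2.02), and Nlgn3, a neuroligin of synapses, at 1.38 and 6.53 TPM (1.89).

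Gjb2 and Gjb6 code for the gap junction proteins connexin 26 and connexin 30 of epithelia and the inner ear. Gjb2 stood at 9.97 and 29.4 TPM (1.49, 1.36 to 1.63) and Gjb6 at 1.44 and 5.75 TPM (1.88, 1.54 to 2.29). They are neighbours on chromosome 14, 18.6 kb apart, on GRCm38 at positions 57098600 to 57104702 and 57123303 to 57133611. They were the only members among 25 ectoderm and epidermis genes past the count minimum, of which 12 were higher and 13 lower by any amount, with a median of -0.03. Epcam, the highest-count gene of that list that is no member, stood at 35.5 and 32.0 TPM, and Tfap2c, an AP-2 factor of ectoderm, had 1533 and 739 counts (-1.18). Of 9 keratin genes past the count minimum, all left out by symbol, 4 reached the threshold, Krt17, Krt15, Krt14 and Krt5, with log2 differences of 1.00 to 2.46. The other 5, Krt7, Krt8, Krt10, Krt18 and Krt19, ran from -0.63 to -0.02. The remaining adhesion members were Flrt1, Astn1, Sspn, Cldn9, Lrrn1, Adam22, Clstn3, Dtna and Cadm2, at 1.05 to 1.49.

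Skeletal muscle genes stood in several role groups. Atp2a1, the calcium pump SERCA1 of fast muscle, had the largest difference of all members: 44.6 and 317 counts, 0.50 and 4.44 TPM, and a log2 difference of 2.65 (2.24 to 3.18). Actc1, cardiac alpha-actin, the first sarcomeric actin of the embryo, stood at 8.30 and 23.0 TPM (1.40, 1.22 to 1.60). Ttn, the giant spring protein titin, had 124 and 456 counts (1.74, 1.46 to 2.05). Cdh15, M-cadherin of myoblasts, stood at 1.70 and 6.10 TPM (1.76, 1.49 to 2.08), and Megf10, a receptor of muscle satellite cells, at 0.25 and 0.79 TPM (1.57). These 5 are the members on a list of 42 skeletal muscle genes. Of the list, 16 passed the count minimum and 13 were higher by any amount, with a median of 0.52. Over all genes 1.42% were members and 61.6% were higher by any amount. The list was written with earlier results of these data known, so nothing is read from these counts. Tpm2, a tropomyosin and the highest-count gene of the list that is no member, stood at 37.9 and 50.3 TPM (0.41). Myod1 and Myog, the myogenic regulators left out by symbol, had 49 and 566 counts and 62 and 520 counts, with log2 differences of 3.35 and 2.90. Synpo2l, an actin-bundling protein of muscle, Pgam2, the muscle form of phosphoglycerate mutase, and Rbm20, which regulates titin splicing, are members outside the list, at 1.75, 1.16 and 1.32.

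The promoters of 4 of these muscle members are shown because all 4 genes were higher in replicate 2 and a few textbook muscle motifs can be looked for in them. Each runs from 250 bases before to 50 bases after the annotated start in RefSeq (GRCm38.p6), 5' to 3' on the gene's strand. Capitals mark an E-box (CANNTG), the CArG box bound by SRF, the MEF2 box and a TATA box (TATAAA), searched on both strands. Actc1 lies on the minus strand at chr2:114052826-114053125, Atp2a1 on the minus strand at chr7:126463024-126463323, Ttn on the minus strand at chr2:76982498-76982797 and Cdh15 on the plus strand at chr8:122848124-122848423.
Actc1: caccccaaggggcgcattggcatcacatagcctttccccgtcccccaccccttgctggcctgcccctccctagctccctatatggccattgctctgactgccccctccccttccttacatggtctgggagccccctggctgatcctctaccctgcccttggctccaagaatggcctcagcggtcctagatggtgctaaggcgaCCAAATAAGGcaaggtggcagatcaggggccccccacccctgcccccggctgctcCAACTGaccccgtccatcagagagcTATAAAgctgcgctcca
Atp2a1: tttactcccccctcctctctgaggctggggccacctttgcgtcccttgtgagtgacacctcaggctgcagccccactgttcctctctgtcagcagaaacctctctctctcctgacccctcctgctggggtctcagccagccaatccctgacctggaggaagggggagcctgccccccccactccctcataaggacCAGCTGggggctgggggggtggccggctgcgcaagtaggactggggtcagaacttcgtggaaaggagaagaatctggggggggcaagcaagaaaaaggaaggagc
Ttn: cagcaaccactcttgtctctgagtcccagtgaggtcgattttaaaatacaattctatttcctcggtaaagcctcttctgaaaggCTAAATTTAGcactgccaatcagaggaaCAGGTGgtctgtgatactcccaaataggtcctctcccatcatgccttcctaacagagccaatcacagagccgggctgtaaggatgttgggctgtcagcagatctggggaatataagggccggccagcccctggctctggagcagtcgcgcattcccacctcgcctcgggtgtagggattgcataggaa
Cdh15: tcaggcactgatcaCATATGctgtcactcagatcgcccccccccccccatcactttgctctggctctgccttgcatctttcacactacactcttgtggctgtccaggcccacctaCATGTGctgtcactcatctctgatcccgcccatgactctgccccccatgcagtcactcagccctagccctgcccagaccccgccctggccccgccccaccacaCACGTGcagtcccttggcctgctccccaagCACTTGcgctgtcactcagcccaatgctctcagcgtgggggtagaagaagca
In Actc1 the CArG box begins 47 bases before the start, an E-box at position 9 after it and TATAAA at position 34. Atp2a1 has 1 E-box, CAGCTG, that begins 55 bases before the start. The Ttn window has a MEF2 box that begins 166 bases before the start and an E-box 138 bases before it. Cdh15 has 4 E-boxes and none of the other motifs. A match is a run of letters and not a measured site, and E-boxes are common: CANNTG occurred in 70.3% of member promoters, 61.4% of those of all genes past the count minimum and 72.1% of all 27025 promoters of the table.

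Promoters were matched by symbol for 118 of the 159 members and 9099 of the 11521 genes. The members' promoters were poorer in CpG: an observed over expected ratio of 0.6 or more was found in 48.3% of them, against 76.6% of genes past the count minimum. Of 18 matched promoters of genes at least 2-fold lower, 38.9% reached that ratio. The share was 57.7% among genes with a mean count of 100 to 500 and 49.4% among members in that range. TATAAA was present in 13.6% of member promoters (exact 95% interval 7.95% to 21.1%), 6.29% of those past the count minimum and 14.2% of all promoters. At mean counts of 100 to 500 it was present in 11.8% of members (5.79% to 20.6%) and 7.40% of all genes, a share inside that interval. CAGCTG, a subset of CANNTG, was present in 21.2% of members (14.2% to 29.7%) and 14.3% of genes past the minimum, and at 100 to 500 counts in 22.4% (14.03% to 32.7%) and 18.6%. The Runx motif ACCACA stood at 18.6% (12.1% to 26.9%) and 11.6% in the whole sets, and in 16.9% of all promoters. At 100 to 500 counts it stood at 22.4% (14.03% to 32.7%) and 13.1%. Neither interval holds the share of genes past the minimum, but several motifs were searched and no test was made, so nothing is read from this. The GC box GGGCGG stood at 55.9% (46.5% to 65.1%) and 67.7%, and at 100 to 500 counts at 57.6% (46.4% to 68.3%) and 62.0%. The CArG box was in 2 member promoters and the MEF2 box in 2, which is 1.69% for each, against 1.32% and 0.330% of the genes past the minimum. The exact 95% interval of each member share, 0.206% to 5.99%, holds both of those values. At 100 to 500 counts the CArG box was in 1.18% of members and 1.57% of all genes, and the MEF2 box in 2.35% and 0.577%. Both boxes were added with the promoters in view, so nothing is read from these shares.

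Of the contractile and cytoskeletal genes, Synpo, an actin-associated protein of podocytes and dendritic spines, and Gas2, a microfilament protein named for growth arrest, were abundant. Synpo stood at 42.0 and 89.6 TPM (1.04, 0.98 to 1.10) and Gas2 at 26.3 and 56.2 TPM (1.00, 0.92 to 1.10). Gas2 and Gadd45b, a stress and growth arrest gene at 3.60 and 7.74 TPM, were the members on a list of cell cycle exit genes. Of its 13 genes past the count minimum, 11 were higher by any amount, beside 61.6% of all genes. Cdkn1c, the highest of the list genes that are no members, stood at 196 and 367 TPM (0.84). Fhdc1, a formin relative, is the sixth gene of the group, and its log2 ratio of TPM was 0.93 where that of counts was 1.58, since the tables gave it different effective lengths in the 2 libraries.

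Channels, pumps and transporters were low in level, with a median of 0.88 TPM in replicate 1 and 2.96 TPM in replicate 2. Gabrp, the pi subunit of the GABA-A receptor, had 38 and 223 counts and stood at 0.45 and 2.52 TPM (2.37, 1.93 to 2.96). Like Atp2a1, it rests on under 100 counts in replicate 1. Also in the group were the lipid flippase Atp8a2, the urea transporter Slc14a1, the T-type calcium channel Cacna1h, the potassium channel genes Kcne1l and Kcnj2, the Stra6 relative Stra6l, Tmem63a and the monocarboxylate transporter family gene Slc16a4, at 1.05 to 1.75.

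Some members are best known from neurons. Calb2, calretinin, a calcium buffer, stood at 2.40 and 8.57 TPM (1.75, 1.42 to 2.14). Tspoap1, Brinp1, Cadps2, Serpini1, Mturn, Unc13b, Caskin1, Dnm3, Plppr1 and Nyap1, which serve vesicle release, endocytosis or neurite growth, ran from 1.01 to 1.39. On a list of 35 neuron genes, 12 passed the count minimum and 5 were higher by any amount, beside 61.6% of all genes. None of the 12 was a member, and with 1.42% of all genes as members nothing is read from that. Its summed level was 93.4 TPM in replicate 1 and 85.0 TPM in replicate 2, and its median log2 difference was -0.07. On the list of neural crest and glia genes, 5 of 6 genes past the minimum were higher, Tfap2b was the member and the summed level was 38.3 and 49.0 TPM.

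Metabolic members were Nanp, a sialic acid synthesis phosphatase at 3.96 and 11.4 TPM, Cpt1a, which carries fatty acids into mitochondria, at 2.28 and 6.75 TPM, the glycolytic enzymes Pgam2 and Aldoc, the glycerate kinase Glyctk, the glutathione transferase Gstm7 and the phospholipase Pla2g4b. Their log2 differences ran from 1.06 to 1.60. Nanp shares exon sequence with Ninl and Pla2g4b with a readthrough gene, and the interval of TPM overlapped between libraries for both. Among the 25 remaining members, Serinc2, a membrane protein linked to serine incorporation into lipids, had 578 and 2765 counts and stood at 12.7 and 60.0 TPM (2.13, 2.00 to 2.26). It was the only member with both a mean above 10 TPM and a difference above 2. Pmaip1, the cell death protein Noxa, stood at 25.9 and 54.7 TPM (1.01), and Fam181b at 12.2 and 32.4 TPM (1.33). Tmem200a (2.17), Tmem26 (1.96), Fam84a (1.93) and E130114P18Rik (1.82) were also among the larger differences. E130114P18Rik overlaps Nfia on the opposite strand on chromosome 4, and reads of the 2 genes may not be separated. The rest were Tcp11l2, Scrn1, Tmem169, D630003M21Rik, Fam160a1, Pdzd2, Rundc3b, AW551984, Zfr2, Pnmal2, Fbxo41, Fam184a, Kdelr3, Tmem191c, Fam69c and Lzts1, at 1.01 to 1.65.

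**Figure D4:**
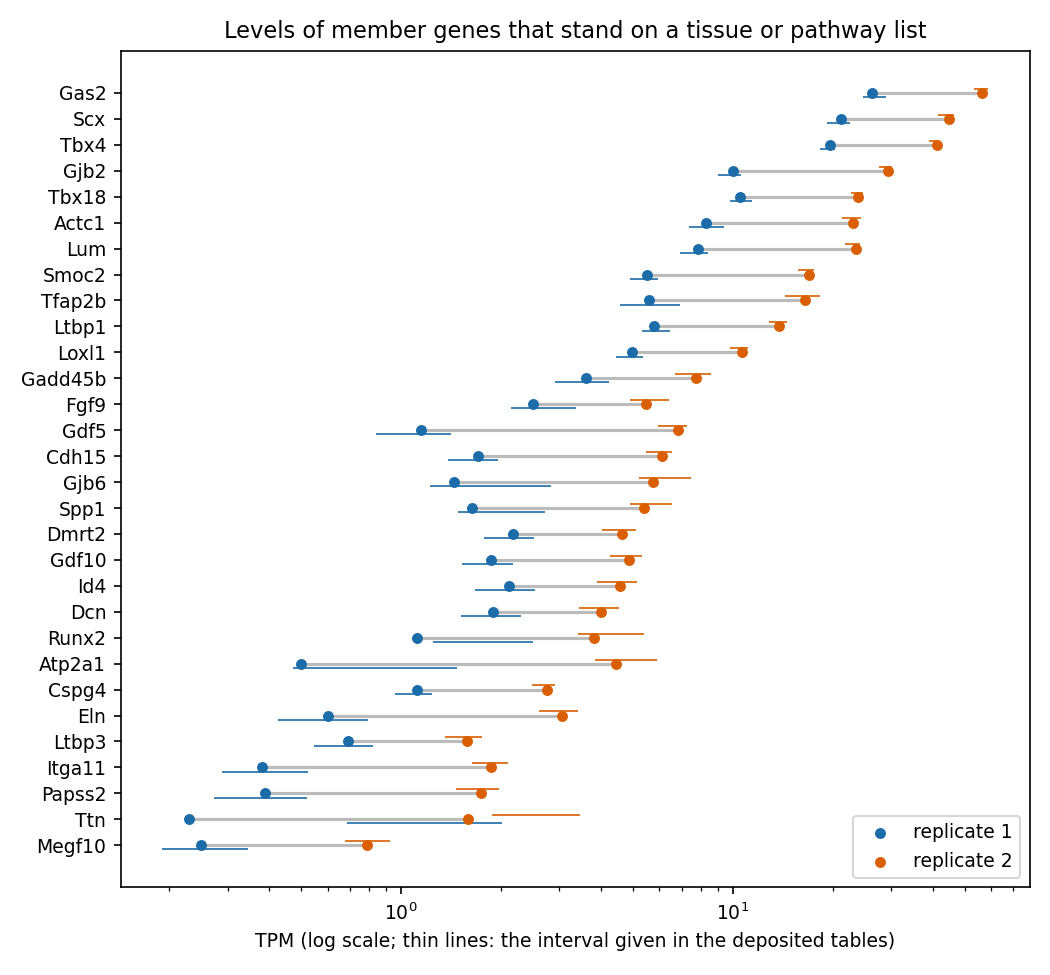
TPM on a log scale of the 30 members that stand on a tissue or pathway list, in replicate 1 (blue) and replicate 2 (orange), with the interval given in the deposited tables as a thin line. Levels run from below 1 TPM for Megf10 to 56.2 TPM for Gas2 in replicate 2, and the intervals of Ttn overlap and do not hold its points.

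Of the 159 members, 30 stand on at least 1 of the 26 tissue and pathway lists, which say nothing about the other members. The highest list median was that of tendon, 0.86 over 5 genes past the count minimum. Of these 5, 3 were higher by any amount and 2 were lower, down to -0.55. Scx and Dcn were members, and Mkx, another tendon factor, stood at 5.75 and 11.7 TPM (0.86), just below the threshold. The next list medians were those of neural crest and glia (0.56), BMP and TGF-beta pathway genes (0.52) and skeletal muscle (0.52). Matrix (0.47), cartilage (0.39) and macrophage genes (0.35) followed, beside 0.07 over all genes. The BMP and TGF-beta list holds ligands and antagonists as well as targets. On the BMP and TGF-beta list Gdf10, Id4 and Ltbp3 were members and 13 of 18 genes were higher. The distal limb and joint list had Gdf5 and Tfap2b as members, with 8 of 13 higher and a median of 0.33, and the somite list Tbx18 and Dmrt2, with 6 of 7 higher and a median of 0.11. All these counts stand beside 61.6% of all genes higher by any amount, and nothing particular to a list is read from them.

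Several lists held no member. Members are 1.42% of all genes, so nothing is read from a list of this size with none. None of 18 endothelial genes was one, and their log2 differences stayed between -0.17 and 0.27. None of 14 erythroid genes was one, and 2 of them were higher by any amount, beside 61.6% of all genes. Nor was any of 10 coelomic lining, 9 neural tube, 16 Wnt antagonist, 15 immediate early, 15 heat shock and hypoxia or 17 imprinted genes. On the coelomic list Upk3b, a mesothelial uroplakin, was lower by 1.93 and Lrrn4 by 1.15 on the log2 scale, and on the neural tube list Lin28a, an RNA-binding protein of early embryonic cells, went from 38.8 to 13.9 TPM (-1.55). Heart and liver or gut lists had 1 gene each past the minimum. The median of all genes shifts with the scaling, by 0.18 upwards with spike-ins, so list medians near 0 have no fixed sign, while their order does not depend on it.

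**Figure D5:**
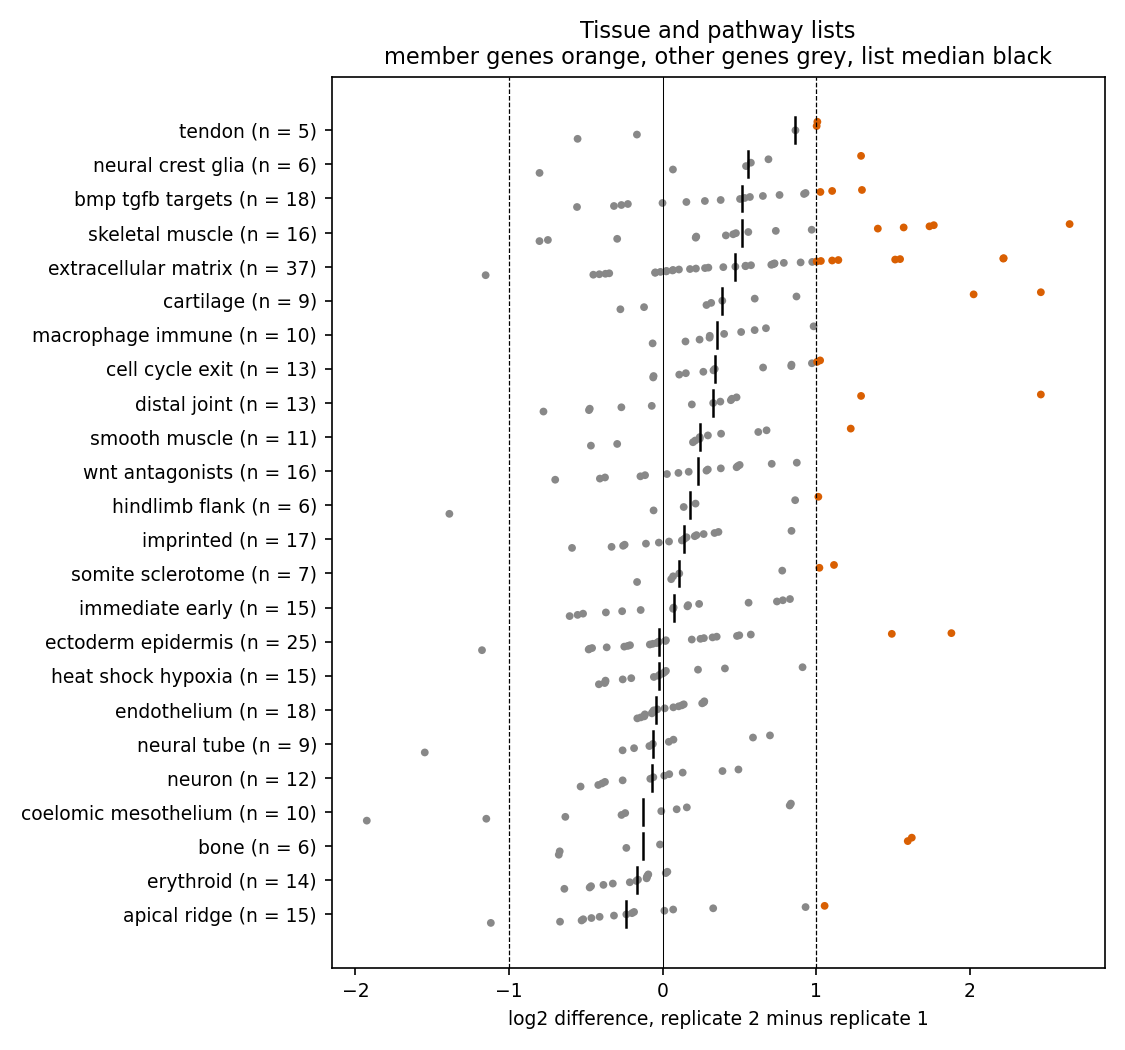
The log2 difference of each list gene past the count minimum, for the 24 tissue and pathway lists with at least 3 such genes, sorted by list median (black line); orange points are members and grey points other list genes, and dashed lines mark a 2-fold difference either way. Tendon, neural crest, BMP and TGF-beta pathway (labelled targets), muscle and matrix lists lie highest, while the endothelial points stay close to 0.

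Transcripts and position were compared as well. Of 114 members with more than 1 transcript, 97 had the same leading transcript in both libraries (85.1%), against 92.2% of all genes past the count minimum. At mean counts of 100 to 500 the shares were 82.9% for members and 84.1% for all. For Tbx4 the leading transcript Tbx4-203 took 67.4% and 88.3% of the gene's TPM. Ttn was spread over many transcripts, and Ttn-215, of 2159 nt, took 14.1% in replicate 1 and 51.2% in replicate 2. The tables therefore gave Ttn an effective length of 20160 nt and 10307 nt, and its TPM values of 0.23 and 1.59 differ by more than its counts. Members were found on 20 chromosomes, with 0.645% to 2.99% of the genes tested on each. Exons of 56 members overlapped another annotated gene, 47 on the opposite strand and 13 on the same strand. Whether reads were counted by strand is not given in the sources used here, so counts of these genes may include reads of the other gene.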

How the data were processed

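Total RNA of 2 pools of mouse limbs at embryonic day 10.5 was compared, 1 library a pool. The deposited gene and transcript tables give expected counts, TPM, a posterior mean TPM and signal bounds of a TPM interval of unstated level, and, for transcripts, the percent of the gene's TPM. Per the sample text files, the authors quantified each library from transcriptome alignments on mm10 with GENCODE M4. Neither the aligner and quantifier, with their versions, nor the use of strand is stated in the labels or text files.

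Identifiers were matched without version to GENCODE M21 on GRCm38, which named 42462 of 43346 Ensembl rows (98.0%) and gave transcript types. The log2 difference was computed from expected counts plus 2, scaled to CPM of Ensembl-row counts. Its counting interval is the exact (Clopper-Pearson) 95% interval of the ratio of rounded counts, and covers counting error only, since reads without molecular identifiers are not independent molecules. It was tried only on simulated counts that held counting error alone, the interval's own assumption, so that trial says nothing about variation between pools. Promoters came from RefSeq (GRCm38.p6), the first entry for a symbol.

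The members, the tissue lists and the rules were chosen with earlier results of these data known, and the role groups once the members were known. The CArG and MEF2 boxes were added with the promoters in view. Any member could be named, and a few members are not reported here. Other genes were named as neighbours of the threshold, as left out by symbol, as list genes lower by 1 or more, or as the highest-count list gene that is no member. Msx1, Prrx1, Tbx5, Pitx1, Wfikkn1 and the second gene of an overlapping pair were chosen after their values were seen.

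Alternatives were edgeR 4.0.16 TMM and DESeq2 1.42.0 size factors (R 4.3.3), spike-in scaling, other added counts and count minimums, and log2 of deposited TPM plus 1. Tables were joined with pandas 2.3.3 and numpy 2.4.6 under Python 3.11.15, intervals came from scipy 1.17.1, and figures from matplotlib 3.10.9. No test across genes was run, because each side is 1 library and the difference chose the genes.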

Additional observations from a re-analysis of the deposited data

How the results depend on the processing

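The number of members changed with the settings. Spike-in scaling, which raised the median log2 difference of all genes by 0.18, gave 271 genes, TMM 122, DESeq2 size factors 118, and added counts of 0.5 and 10 gave 161 and 138. With log2 of TPM plus 1 the count was 88, of which 79 were members, and with the posterior mean TPM it was 74, of which 68 were members. Adding 1 TPM shrinks the differences of low genes by construction. A minimum mean count of 10 gave 569 genes, 200 gave 90 and no minimum 1035. The 25 genes at least 2-fold lower became 9 with spike-in scaling, 7 with TPM, 4 with posterior mean TPM, 126 at a minimum of 10, 13 at 200 and 510 with no minimum. The members' median log2 difference of 1.26 was 1.00 with TPM plus 1 and 0.95 with posterior mean TPM plus 1, and 1.18 to 1.44 under the other scalings. Their median level of 3.20 TPM ranged from 1.66 to 4.52 when either library was left out. With every symbol kept, an alternative added after seeing the data, there were 181 genes. From protein-coding transcripts alone, also added after seeing the data, there were 201 genes at least 2-fold higher, of which 152 were members, and 44 at least 2-fold lower. No paired analysis was possible because both libraries belong to 1 group. Counts under 100 in replicate 1, for 64 members, limit how well the size of a difference is known.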
